A study of Homo sapiens with 4 samples.

Results

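PLEC encodes plectin, a very large linker protein of the plakin family. Of the 45977 cassette exon events listed for both groups, 3 lay in this gene. They were found as all events on chromosome 8, minus strand, whose skipped exon, or both of whose flanking exons, match a GENCODE release 29 exon of PLEC, and each of the 3 matched by its skipped exon. They are a coding exon of 3381 nt that encodes the rod of plectin (rod exon) and 2 small exons of 15 nt and 36 nt near the 5′ end of the coding region. The cells were MDA-LM2, a lung-metastatic derivative of the human breast cancer line MDA-MB-231. All cells were lipofected, with the SSE mimetic RNA in one group and a scrambled oligo in the other (2 samples per group, 4 in all), and total RNA was sequenced. SSE is the structured splicing enhancer that the mimetic stands for, and the comparison asks whether the mimetic alters exon inclusion. The deposited tables hold 1 pooled value per group, so no spread between samples, no value per sample and no test across samples exists. The labels name no batch and leave unsaid whether separate cultures were used for the 2 samples in each group.

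Plectin ties intermediate filaments to actin, to microtubules and, in epithelial cells, to the integrins of hemidesmosomes. Its amino terminus holds an actin-binding domain and the plakin domain, its middle is a long coiled-coil rod through which the protein dimerizes, and its carboxyl terminus is a row of plakin repeats that bind intermediate filaments. Alternative first exons give isoforms that are sent to different places in the cell. A form without the rod arises when the rod exon is skipped.

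In hg38 the gene lies on chromosome 8 from 143915147 to 143976734 and spans 61588 nt. GENCODE lists 15 transcripts, of which 14 are protein-coding, with 14 different transcript starts and 54 distinct exons. The rod exon (143922504 to 143925884) is exon 31 in most of the 9 transcripts that include it, is wholly coding there, and makes up 24.06% to 24.96% of their coding length. In 1 transcript, PLEC-211, the exons on either side are joined directly. The exon before it has 99 nt and is set off by an intron of 899 nt. The exon after it, across an intron of 108 nt, is the last of the gene and has 7243 nt, up to 6216 of them coding. The 15-nt exon (143938401 to 143938415) and the 36-nt exon (143937749 to 143937784) lie in the part that encodes the amino-terminal region. Both were found in a single transcript, PLEC-213, and are skipped in 14 and 13 others. Every one of the 3 exons is a whole number of codons (1127, 5 and 12), so that skipping keeps the reading frame. No exon of another gene overlaps the rod exon or its flanks. The bases of these exons are not printed here.

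**Figure D1:**
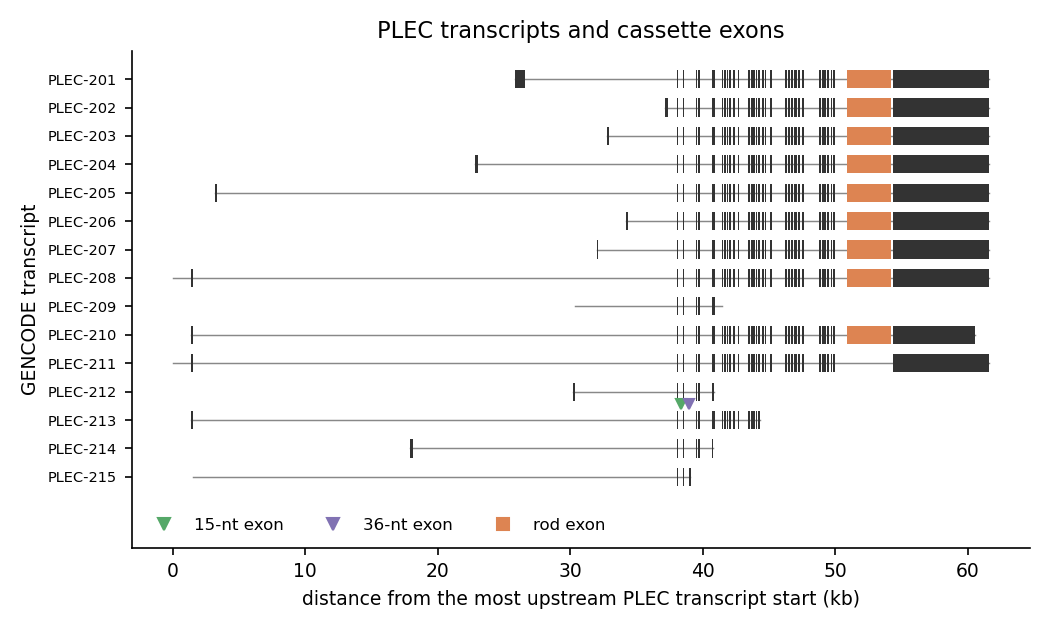
The 15 GENCODE transcripts of PLEC, 1 per row, with exons as boxes and introns as lines, against the distance in kb from the most upstream start. The rod exon (orange) is present in 9 transcripts and absent from PLEC-211, and triangles mark the 15-nt and 36-nt exons in PLEC-213.

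By the authors' deposited estimates, which use reads shared by both isoforms, the rod exon was lower after the SSE mimetic. In the authors' deposited table its percent spliced in (Ψ, the estimated fraction of transcripts that keep the exon) was 0.41 after the SSE mimetic and 0.88 after the scrambled oligo. The authors' 95% credible intervals, 0.38 to 0.44 after the SSE mimetic and 0.86 to 0.90 after the scrambled oligo, lay apart. In the authors' deposited table the difference was -0.47 and the Bayes factor, which weighs a difference against no difference, stood at its cap of 1e12. From reads that match 1 isoform alone (isoform-specific reads) Ψ was 0.954 (0.788 to 0.999) after the SSE mimetic and 0.941 (0.902 to 0.969) after the scrambled oligo. The sign of the difference turned, but these intervals overlap and resolve no direction. The call was lost with Fisher's exact test on these reads (p = 1). By the same deposited estimates the 36-nt exon was almost entirely skipped in both groups, at 0.06 (0 to 0.18) in the SSE mimetic group and 0.01 (0 to 0.02) in the scrambled group. The authors' deposited table gave it a difference of 0.05 and a Bayes factor of 0.13. The 15-nt exon had a deposited Ψ of 0.46 after the SSE mimetic and 0.02 (0 to 0.07) after the scrambled oligo. Its interval after the SSE mimetic ran from 0.02 to 0.97 and thus over nearly the whole scale.

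**Figure D2:**
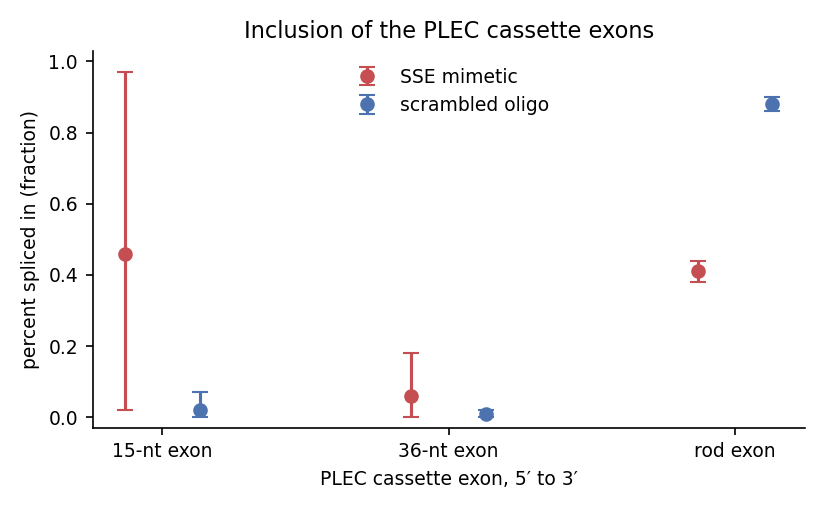
Percent spliced in (fraction) of the 3 PLEC exons in 5′ to 3′ order, as deposited, the SSE mimetic (red) drawn left of the scrambled oligo (blue). Bars are 95% credible intervals of 1 pooled read set per group. The intervals are apart for the rod exon alone, and that of the 15-nt exon after the SSE mimetic runs from 0.02 to 0.97.

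Tested were exons with 10 or more isoform-specific reads in both groups. A call needed a Bayes factor of 10 or more in the authors' deposited table and a difference in Ψ of 0.1 or more in size. Of the 3 PLEC exons, 2 were tested and 1, the rod exon, was called lower. Over all 8228 tested exons of the series 3.99% were called, 3.1% higher and 0.887% lower after the SSE mimetic. The median difference over these exons was -0.03. The difference of the rod exon was among the 18 lowest, and its Bayes factor was 1 of 31 at the cap, of which 13 belonged to exons called lower. These calls compare 2 pooled read sets, and credible intervals cover counting error only.

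The reads behind the rod exon were of unequal kinds. Reads in the exon or across its own junctions (inclusion reads) numbered 956 after the SSE mimetic and 8883 after the scrambled oligo. Reads across the junction that joins its neighbours (skipping reads) numbered 1 after the SSE mimetic and 12 after the scrambled oligo. Reads inside the flanking exons, which match both isoforms (shared reads), numbered 5026 after the SSE mimetic and 21445 after the scrambled oligo. Shared reads thus made up 84.0% of the reads usable for Ψ after the SSE mimetic and 70.7% after the scrambled oligo. Only 97 reads after the SSE mimetic and 644 after the scrambled oligo matched neither isoform, 1.60% and 2.08% of all reads at this event.

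Almost all isoform-specific reads of the rod exon were inclusion reads in both groups. Inclusion reads were 0.99896 of the isoform-specific reads after the SSE mimetic (95% Clopper-Pearson interval 0.99419 to 0.99997) and 0.99865 after the scrambled oligo (0.99764 to 0.99930). The odds of inclusion were 1.29 times as high after the SSE mimetic, with an exact interval from 0.191 to 55.3 that spans both directions. For these reads p was 1 (Fisher's exact test, two-sided) and the adjusted p, over all tested exons, was also 1. This test passed for 0 of the 2 tested PLEC exons, also at an unadjusted p under 0.05. The other tested PLEC exon had no inclusion read in either group, so this test could not pass for it. Fisher's exact test passed for 1.01% of all 8228 tested exons after adjustment. Of these exons, 4509 had no skipping read in either group and likewise could not pass. The test compares these 2 read sets rather than the conditions.

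A Ψ estimate from isoform-specific reads alone was made by dividing each class by its number of possible read starts. With reads of 76 nt, the length that came closest to the deposited values, these are 3456 for inclusion and 75 for skipping. By this estimate Ψ of the rod exon was 0.954 after the SSE mimetic (0.788 to 0.999) and 0.941 after the scrambled oligo (0.902 to 0.969). The difference of 0.0126 has the other sign, but these intervals overlap. The interval after the SSE mimetic, which rests on 1 skipping read, does not reach down to the deposited 0.41. A Ψ of 0.41 together with 956 inclusion reads implies 29.9 skipping reads after the SSE mimetic, or 26.4 at the upper bound of Ψ. The exact Poisson interval of the 1 read seen ends at 5.57. With the scrambled oligo a Ψ of 0.88 implies 26.3 skipping reads, or 21.4 at the upper bound of Ψ, and the 12 reads seen have an interval of 6.20 to 21.0. Among the 73 exons called lower in the series, the rod exon included, 56 had an upper bound below the implied number in the SSE mimetic group. The median there was 8.78 reads implied and 0 seen. These exons were chosen by the same Ψ that gives the implied number, so these values only describe them.

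**Figure D3:**
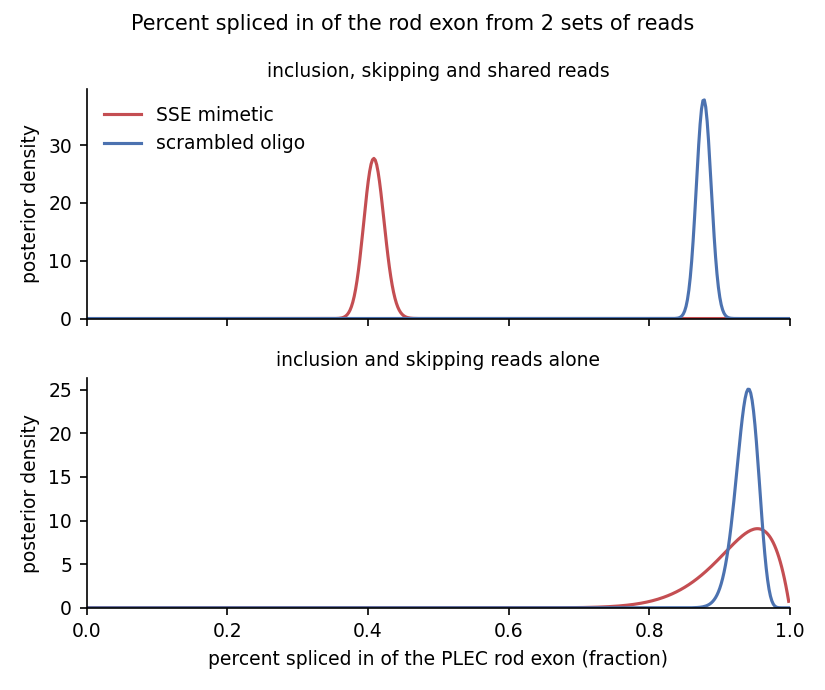
Posterior density of percent spliced in (fraction) for the PLEC rod exon in a 2-isoform model with a flat prior, for the SSE mimetic (red) and the scrambled oligo (blue). With all usable reads (top) the curves are centred near 0.409 and 0.878, and with inclusion and skipping reads alone (bottom) they overlap between about 0.9 and 1.

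What set the groups apart at the rod exon was the number of shared reads per inclusion read, 5.26 after the SSE mimetic and 2.41 after the scrambled oligo. Full inclusion with even coverage would give 2.08. On the log2 scale this quotient was 1.12 higher after the SSE mimetic. MISO, the authors' program, assigned 2946 of the reads to the skipping isoform and 3037 to the inclusion isoform after the SSE mimetic, so that 49.2% went to the skipping isoform. With the scrambled oligo it assigned 2992 and 27348, or 9.86%. Nearly all reads assigned to skipping in either group were therefore shared reads, which lie in the flanking exons.

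Per possible read start, the rod exon had 0.277 inclusion reads and its flanks 0.699 shared reads after the SSE mimetic, against 2.57 and 2.98 after the scrambled oligo. Coverage of the rod exon was thus close to that of its flanks, mostly the last exon, in the scrambled group and well below it in the SSE mimetic group. The SSE mimetic over scrambled ratio was 0.108 for inclusion reads (exact counting interval 0.101 to 0.115) and 0.234 for shared reads (0.227 to 0.242). These intervals are apart. In pooled bulk RNA, a lower read number cannot be told apart from fewer cells with the transcript.

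Toward the 5′ end the SSE mimetic over scrambled ratio differed between read classes. The skipping junction over the 36-nt exon had 14 reads after the SSE mimetic and 172 after the scrambled oligo, a ratio of 0.0814 (0.0436 to 0.140). The skipping junction over the 15-nt exon had 0 reads after the SSE mimetic and 60 after the scrambled oligo, and the interval of the ratio ends at 0.0634. The exon of 90 nt between the 2 small exons lies a median of 14404 spliced nt from the 3′ end in transcripts with the rod exon. Shared reads of these 2 events were few, 7 after the SSE mimetic against 23 after the scrambled oligo at the 36-nt exon and 7 against 22 at the 15-nt exon. Their ratios of 0.304 (0.110 to 0.733) and 0.318 (0.115 to 0.771) rest largely on the same 90-nt exon and have wide intervals. Reads that matched neither isoform had a ratio of 0.108 (0.0782 to 0.146) at the 36-nt exon, with 47 after the SSE mimetic and 435 after the scrambled oligo. At the 15-nt exon it was 0.171 (0.138 to 0.212), with 102 after the SSE mimetic and 595 after the scrambled oligo, above the 0.108 of the rod exon's inclusion reads.

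**Figure D4:**
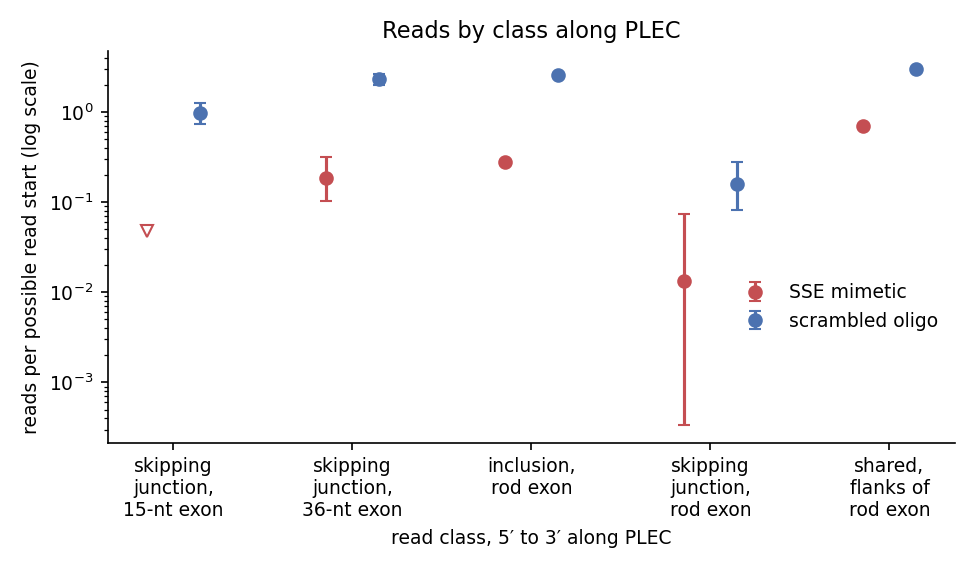
Reads per possible read start (log scale) for 5 read classes along PLEC, 5′ to 3′, the SSE mimetic (red) drawn left of the scrambled oligo (blue). Bars are exact 95% Poisson intervals and the open triangle is the level that 0 reads allow (3 reads). After the SSE mimetic the rod exon, at 0.277, lies below its flanks, at 0.699, and after the scrambled oligo these are 2.57 and 2.98.

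Neither small exon had an inclusion read in either group. Most reads at both events matched neither isoform, 69.1% after the SSE mimetic and 69.0% after the scrambled oligo at the 36-nt exon, and 93.6% and 87.9% at the 15-nt exon. For the 36-nt exon, 0 of 14 isoform-specific reads after the SSE mimetic allows an inclusion share of up to 21.4%, and 0 of 172 after the scrambled oligo one of up to 1.74%. For the 15-nt exon, 0 of 60 after the scrambled oligo allows up to 5.0%. These limits take 0 as at most 3 reads. The upper bounds of the two-sided 95% Clopper-Pearson interval, as fractions, are 0.232 after the SSE mimetic and 0.0212 after the scrambled oligo for the 36-nt exon, and 0.0596 after the scrambled oligo for the 15-nt exon. With the SSE mimetic this exon had no isoform-specific read at all, so its Ψ of 0.46 rests on 7 shared reads, which fit both isoforms. Inclusion of the 15-nt exon after the SSE mimetic was therefore not measurable from these reads, and the exon was not tested. Its difference of 0.44 in the authors' deposited table had a Bayes factor of 1.16.

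The rod exon had one of the largest numbers of isoform-specific reads, at rank 15 among tested exons after the SSE mimetic and at rank 3 after the scrambled oligo. These ranks are by read number and are not corrected for the length of the exon. Over all events, isoform-specific reads numbered 431105 after the SSE mimetic and 2039336 after the scrambled oligo, a ratio of 0.211. For a tested exon the median ratio was 0.264 (interquartile range 0.169 to 0.448), and 7.22% of exons had a lower one than the rod exon. The 36-nt exon, at 0.0814, was undercut by 2.61% of exons. Both shares are over tested exons, where the minimum of 10 reads drops low ratios unless the scrambled reads are many. The median tested exon had 78 isoform-specific reads after the scrambled oligo, so low ratios can be under-represented in these shares. For shared reads the median ratio was 0.252, and 45.2% of exons had a lower one than the rod exon. Among tested exons the rod exon was thus near the middle in shared reads and far below the middle in inclusion reads. Of 4141 exons with at least 10 inclusion and 10 shared reads in each group, 388 (9.37%) had a larger rise in shared reads per inclusion read, and the median rise on the log2 scale was 0.09 (interquartile range -0.45 to 0.61).

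**Figure D5:**
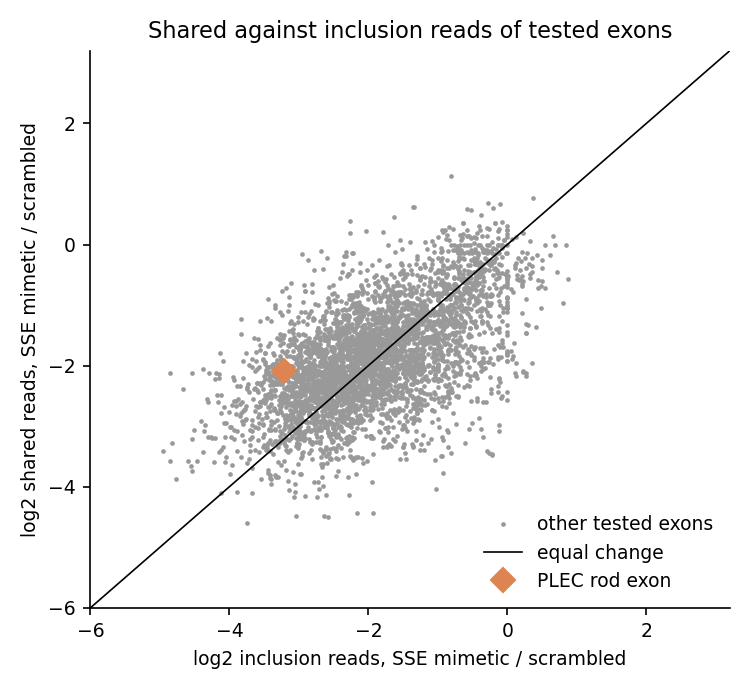
Log2 ratio of shared reads against log2 ratio of inclusion reads, SSE mimetic over scrambled oligo, for the 4141 tested exons with at least 10 reads of each class per group (grey) and the PLEC rod exon (orange). The line marks equal change, and the rod exon lies above it at -3.22 for inclusion and -2.09 for shared reads, where the medians are -2.0 and -1.92.

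Exons of like geometry were set beside it. Over all 8228 tested exons 255 were called higher (3.1%) and 73 lower (0.887%). Of 397 other tested exons of at least 1000 nt, 31 were called higher and 6 lower, both larger shares than over all tested exons. Their median difference was -0.02. Of the 58 among them whose downstream flank also had at least 1000 nt, 6 were called higher and 1 lower. The lower one was in RBM14, an RNA-binding coactivator gene (chromosome 11, 66624214 to 66625678), at 0.64 (0.48 to 0.79) after the SSE mimetic and 0.93 (0.84 to 0.98) after the scrambled oligo. It had 60 inclusion, 0 skipping and 248 shared reads after the SSE mimetic and 329, 0 and 886 after the scrambled oligo. A larger rise in shared reads per inclusion read than that of the PLEC rod exon was seen in 7 of the 212 long exons with at least 10 reads of both classes per group. For the 58 with a long downstream flank, all of which had such reads, the number was 0. Where the downstream flank was the last exon of a transcript, as in PLEC, the median rise was 0.03 over 948 other exons, and elsewhere it was 0.11 over 3192. The SSE mimetic over scrambled ratio of isoform-specific reads was also taken by distance from the 3′ end, in classes chosen after seeing the data. Its median was 0.254 in 4318 exons within 1000 spliced nt of the 3′ end and 0.315 in 81 other exons at 7000 nt or more, where the rod exon, at a median of 7243 nt, had 0.108. These classes hold tested exons of many genes, each with 10 or more isoform-specific reads in both groups. They do not follow coverage along a transcript. Whether coverage along the transcript has a part in the PLEC difference was not tested.

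The genes whose pair of Ψ values lay closest to the rod exon's were sought among 478 exons of other genes, each with 100 or more isoform-specific reads per group, over the 2 pooled groups. The nearest was an exon of ARCN1, a coatomer gene, at 0.46 (0.37 to 0.57) after the SSE mimetic and 0.97 (0.93 to 0.99) after the scrambled oligo, a distance of 0.103. Exons of NR3C1, the glucocorticoid receptor gene, HSP90AA1, a cytosolic chaperone gene, FLNA, which encodes the actin crosslinker filamin A, and NUP50, a nuclear pore gene, followed at distances of 0.161 to 0.224. Shared reads per inclusion read were 1.91 after the SSE mimetic and 0.704 after the scrambled oligo for ARCN1, and 2.54 and 1.09 for HSP90AA1. These 5 exons had 0 or 1 skipping read in each group and an adjusted p of 1 by Fisher's exact test. With so few skipping reads a lower Ψ goes with more shared reads per inclusion read by the choice of the exons, so these values only describe them.

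Other genes of the structures that plectin binds were read for the same calls. A list of 36 genes (plakins, hemidesmosome components, and intermediate filament genes with partners) had 45 tested exons in 16 genes. Called higher were 0 of these and called lower 3, while 42 did not pass, with a median difference of -0.02 and a range of -0.37 to 0.25. The share called, 6.67%, all of it lower, stands beside 3.99% over all tested exons, made up of 3.1% higher and 0.887% lower. The called exons were in ACTN1 and FLNA, genes of actin crosslinkers that the list holds as partners. ACTN1, which encodes alpha-actinin 1, had exons at 0.44 (0.34 to 0.56) after the SSE mimetic against 0.81 (0.74 to 0.87) after the scrambled oligo, on chromosome 14 from 68882873 to 68883055, and at 0.67 (0.43 to 0.88) after the SSE mimetic against 0.98 (0.94 to 1.0) after the scrambled oligo, from 68878989 to 68879069. The FLNA exon (chromosome X, 154353554 to 154353727) had 0.52 (0.46 to 0.58) after the SSE mimetic and 0.69 (0.65 to 0.72) after the scrambled oligo. Each of these 3 exons had 0 or 1 skipping read in each group. By Fisher's exact test on reads, 0 of the 45 passed after adjustment and 1 had an unadjusted p under 0.05. Over all 8228 tested exons 1.01% passed after adjustment and 453 had an unadjusted p under 0.05. Of these 8228 exons, 4509 had no skipping read in either group and could not pass.

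Among plectin's closest relatives, 9 exons of the plakin genes DST and MACF1 were tested and none was called, with differences between -0.15 and 0.01. Over all tested exons 3.99% were called, so the lack of a call among so few exons does not set these genes apart. DST encodes dystonin, and MACF1 a plakin that links microtubules to actin. The best-covered DST exon (chromosome 6, 56617986 to 56620715) is, like the PLEC rod exon, long and followed by a long exon, of 2730 nt and 2843 nt. Ψ was 0.95 (0.86 to 1.0) in the SSE mimetic group and 0.98 (0.96 to 1.0) in the scrambled group, with 380 inclusion, 0 skipping and 383 shared reads after the SSE mimetic against 1199, 1 and 989 after the scrambled oligo. The best-covered MACF1 exon (chromosome 1, 39427961 to 39428287) had 0.97 in both groups. For DSP, EVPL, PPL and EPPK1 no event was listed. The 11 tested exons of hemidesmosome genes, from ITGA6, ITGB4, CD151 and LAMA3, were not called, with differences between -0.13 and 0.25. Beside the same 3.99%, these too are few.

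Isoform-specific reads at the best-covered exon of marker genes were read for the line. CD44, AXL and EGFR, expressed in MDA-MB-231, had 164, 16 and 13 after the SSE mimetic and 995, 102 and 68 after the scrambled oligo. The hormone receptor genes ESR1 and PGR and the epithelial genes CDH1, GATA3 and ESRP1 had 4 to 12 after the SSE mimetic and 2 to 24 after the scrambled oligo. Among genes of other cell types, PTPRC had 10 and DCN 18 after the SSE mimetic, PTPRC 14 and DCN 27 after the scrambled oligo, and CD3E 0 in both groups. After the SSE mimetic AXL and EGFR thus lay below DCN and close to PGR, at 12, so only CD44 stood clearly apart in that group. After the scrambled oligo CD44, AXL and EGFR were above all genes of the other lists. The best exon was taken from 15 listed for CD44 and 1 each for AXL and EGFR. VIM, CAV1, MSN, EPCAM and COL1A1 had no event listed.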

How the data were processed

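The submitters' processing notes name STAR 2.7 and the build hg38. Per the file headers, the tables that the authors deposited are MISO summaries of skipped exons, 1 for each group, with 1 table of their comparison. For read length, MISO version, event set and the pooling of samples the entry is: not given in the sources used here. Ψ as deposited is a fraction, with the bounds of its 95% credible interval. The deposited Bayes factor is a ratio capped at 1e12, and the deposited difference, a score between -1 and 1, is SSE mimetic minus scrambled (within 0.005 of the summaries in all 45977 events). Reads by class are deposited as text, in other units.

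Events sharing a skipped exon were reduced to the one with the most isoform-specific reads (39120 exons). Fisher's exact tests were two-sided, with Benjamini-Hochberg adjustment over 8228 tested exons (scipy 1.17.1). A 2-isoform likelihood with a flat prior was recomputed for 8 read lengths from 36 to 150 nt. At 76 nt it correlated with the deposited Ψ across tested exons at 0.997 (SSE mimetic) and 0.999 (scrambled), and it was tested on simulated data. The simulated reads had the even coverage that the model itself assumes, so its behaviour under uneven coverage was not tested. Exact intervals cover counting error only, and since no molecular identifiers are named, reads are not taken as independent molecules.

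Named were every tested PLEC exon, the small exons, the 5 exons nearest in Ψ, called list exons and the best-covered exon per plakin gene. RBM14 was named after its values were seen. The gene, lists and rules were chosen with earlier results of these data known. Alternatives covered the Bayes factor, the difference, the read minimum, event reduction, read classes and scaling.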

Additional observations from a re-analysis of the deposited data

How the results depend on the processing

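The rod exon was called lower, as 1 PLEC exon, with a Bayes factor of at least 100, a minimum difference of 0.2, a minimum of 20 reads or none, every event counted, members by skipped exon only, and the 2-isoform model on the reads as deposited or with scrambled reads scaled to the SSE mimetic number. Its difference in that model was -0.469 in both settings, and -0.470 and -0.467 at read lengths of 50 and 100 nt, chosen after seeing the data. From inclusion and skipping reads alone, with shared reads left out, it was 0.0126, of the reverse sign. The intervals of Ψ overlap there, 0.788 to 0.999 after the SSE mimetic and 0.902 to 0.969 after the scrambled oligo, so no direction is resolved. No PLEC exon was called (0) with Fisher's exact test or with the share of inclusion reads as Ψ, and the 36-nt exon was untested at 20 reads. The 36-nt exon had no inclusion read in either group, so neither Fisher's exact test nor the inclusion share could call it. The list of plakin, hemidesmosome and intermediate filament genes had 0 calls under both of those settings, against 3. Long exons had 6 and 11, against 38, and the inclusion share is likewise insensitive for them. With a minimum of 20 reads 184 of 3919 exons were called, and with no minimum 644 of 39120, against 328 of 8228. Over these 8228 exons the calls became 164 at a Bayes factor of 100 and 67 with Fisher's exact test. They became 196 with the inclusion share and 179 with scaled reads. Those 67 were all higher with the SSE mimetic. Where no cause is named here, it was not tested. The rod exon was in a single event, so its difference could not be recomputed from other events. No paired analysis was possible because the tables hold 1 pooled value per group, and no replicate could be left out. The 15-nt exon had no isoform-specific read with the SSE mimetic, so its inclusion could not be measured there. For the rod exon, Ψ implies 29.9 skipping reads with the SSE mimetic and 1 was seen. Whether depth has a part in either was not tested.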
